A study of Rattus norvegicus with 2 samples.

Results

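The set described here holds the genes of chromatin remodellers, histone deacetylases, chromobox proteins, high mobility group (HMG) proteins and nucleolar or histone chaperones. Members were chosen by the gene symbols in the array's annotation and not by any measured value. They comprise 169 probe sets for 56 genes, out of 54613 probe sets without the Affymetrix controls. The families are the SMARC genes (14 genes, 45 probe sets), CHD (9 genes, 31 probe sets), HDAC (11 genes, 26 probe sets), RBBP4 and RBBP7 (7 probe sets), CBX (6 genes, 18 probe sets), HMGB (4 genes, 10 probe sets), HMGN (5 genes, 9 probe sets), HMGA (2 genes, 11 probe sets), and SET, NPM1 and NCL (12 probe sets). The symbol rule also takes in SMARCAD1-DT, a transcript named for its place beside SMARCAD1. It was read by 1 probe set and was Absent on both arrays.

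RNA of 2 conditions was hybridised, with 1 array each. The control was YB2/0, a rat myeloma line, which the study's text describes as untransfected. The other sample was labelled as sorted rat myeloma cells. In the study such cells carried a retroviral cDNA library of human umbilical vein endothelial cells, were sorted for binding of patient IgG and were then cloned. The labels name neither the serum nor the clone, and whether the sorted sample was 1 clone or a mixture was not settled here. No treatment was recorded for either sample. For each probe set the authors deposited a MAS5 signal, an intensity on a linear scale, with a detection p-value and a call of Present, Marginal or Absent. The probes are named by human genes, so rat transcripts were read only as far as they bound to human sequence. Each condition had a single array, so the spread between replicates is unknown and no difference was tested. A lower signal cannot be divided here into fewer expressing cells and less RNA per cell.

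DNA in the nucleus is wound around histones. Remodellers of the SMARC and CHD families use ATP to slide or evict these histone cores, deacetylases remove acetyl groups from histone tails, and chromobox proteins bind methylated tails in silent chromatin. HMG proteins bend DNA or loosen its packing, while SET, NPM1 and NCL carry histones or assemble ribosomes in the nucleolus. Most of these proteins are made in every dividing cell, and several work as subunits of shared complexes such as BAF and NuRD.

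The labels were checked through the inserted genes. PROCR had a signal of 186 (Absent) in control against 528933 (Present) in sorted cells. SCARB1 had 99.9 (Absent) against 61076 (Present) at 201819_at, and 1176 (Absent) against 120463 (Present) at 1552256_a_at. Both inserted genes were thus bright on the sorted array at these probe sets. Of the other SCARB1 probe sets, 215834_x_at had 116 (Absent) against 2037 (Marginal). Probe sets 215835_at and 232421_at were Absent on both arrays. The hybridisation spikes differed between the arrays by log2 ratios of -0.58 to 0.57 over 18 probe sets (median 0.24), and the polyA spikes by -0.87 to 0.90 over 24 probe sets (median -0.48). Of 14 plasma and B cell markers, 13 were measured, and 4 were Present in control cells (CD27, MS4A1, PRDM1 and SDC1) against 1 in sorted cells (SDC1). CD27 was lower by at least 5.34-fold by the rule given below, with 1353 in control cells and 253, Absent, in sorted cells, while MS4A1 had 474 and 561 and SDC1 had 3390 and 4206. The summed signal of the plasma and B cell markers was 21758 in control and 19243 in sorted cells. None of 8 endothelial markers was Present on either array, with summed signals of 6327 and 5945. Of 5 fibroblast markers 3 were Present in control and 1 in sorted cells (summed signals 12010 and 11669), and of 5 measured macrophage and T cell markers 0 were (2820 and 3182). The part of these cell types in the results below was not tested.

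A core of these genes was detected on both arrays. Of the 17 probe sets Present on both, 16 differed by less than 2-fold, beside 2288 of 2556 over all probe sets. The genes of this core were NPM1, HMGB1, HMGN3, RBBP4, RBBP7, SMARCA4, SMARCC1, CHD1, CHD2, CHD4 and CHD6, and SET through probe sets that also name other genes. Only CHD1, CHD2, CHD6 and RBBP7 were so detected at a probe set of the gene-specific kind. The others rest on probe sets that can bind several transcripts or genes. Of the 169 probe sets, 33 (19.5%) were Present in control cells, beside 8.93% of all probe sets. In sorted cells 27 (16.0%) were Present, beside 8.24% of all. Together 43 probe sets of 25 genes (25.4%) were Present on at least 1 array, beside 12.5% of all, and 17 probe sets of 12 genes (10.1%) were Present on both, beside 4.68% of all. The other 31 genes were Present on neither array.

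**Figure D1:**
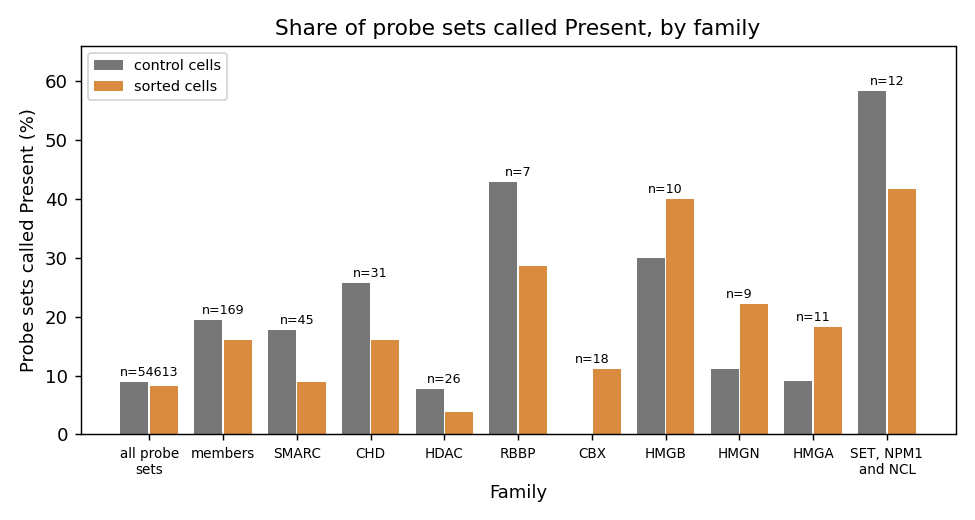
Share of probe sets called Present (vertical axis, percent) in control cells (grey) and sorted cells (orange), over all probe sets, over the members and by family, with the number of probe sets above the bars. The highest shares were those of SET, NPM1 and NCL, 58.3% in control and 41.7% in sorted cells, and CBX had none Present in control cells.

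Signals were compared as deposited. The word higher is used of a probe set that was Present in sorted cells with a log2 ratio of sorted over control of at least 1, and lower of one that was Present in control cells with a log2 ratio of -1 or less. By this 2-fold rule 4 of the 43 member probe sets were higher (9.3%), beside 12.9% of all probe sets Present on at least 1 array. Another 8 were lower (18.6%), beside 14.1% of all. These shares lie near the background. A probe set that is Present on only 1 array enters such a count partly through being brighter there. Over the 43 the median log2 ratio was 0.12, and over all 6821 such probe sets it was 0.05. Over the 17 Present on both arrays it was 0.34, beside 0.11 over all. Of these 17, 13 had a log2 ratio above 0 (76.5%, beside 57.5% of all). After centring on that value of 0.11, 11 did, beside 1278 of 2556 over all. The count over all is fixed by centring on their median.

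**Figure D2:**
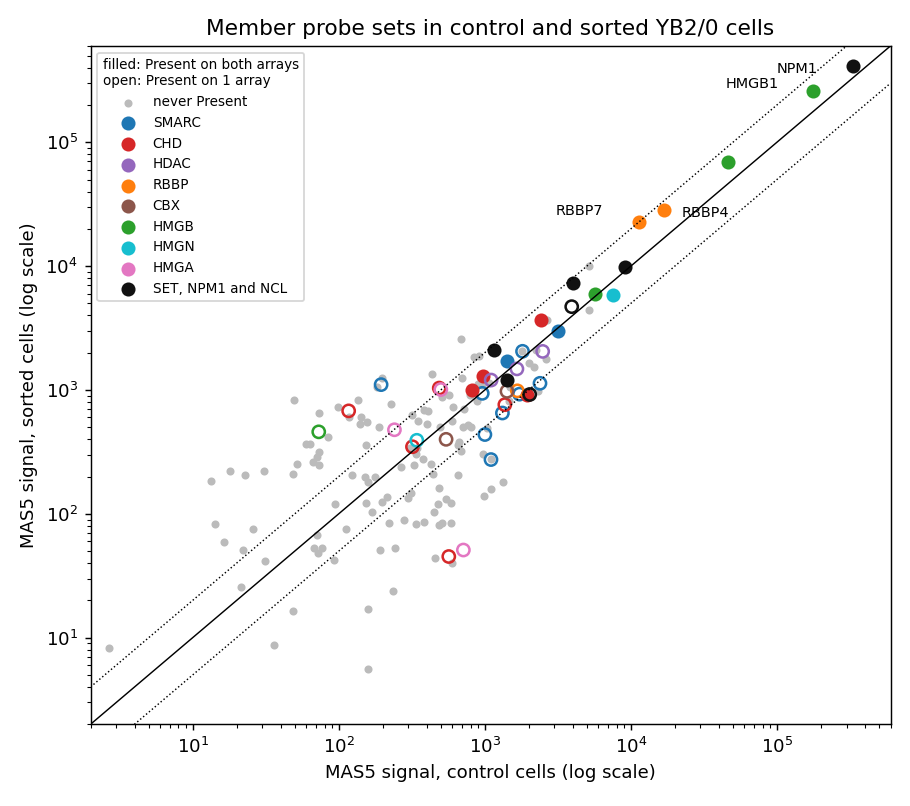
MAS5 signal of the 169 member probe sets in control cells (horizontal axis) and sorted cells (vertical axis), both on log scales, coloured by family where Present on at least 1 array and grey where never Present. Points on the solid line have equal signals, and dotted lines lie 2-fold to either side. The 8 probe sets of NPM1, HMGB1, RBBP4, RBBP7, HMGN3 and SMARCC1 with a detection p-value under 0.01 on both arrays lie between the dotted lines.

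Among the ATPases that drive the BAF complex, SMARCA4 (BRG1) was detected on both arrays and SMARCA2 (BRM) only in control cells. SMARCA4 was read by 9 probe sets, of which 212520_s_at was Present, with a signal of 1414 in control and 1716 in sorted cells. SMARCA2 probe set 212257_s_at had 1002 in control cells and 437, Absent, in sorted cells. A further SMARCA2 probe set, 217707_x_at, had 1321 and 652, the latter Absent. Both SMARCA2 probe sets were thus lower by the 2-fold rule, by at least 2.29-fold and at least 2.03-fold. Here and below, "at least" marks a fold against an Absent signal, taken against the higher of that signal and the lowest Present signal of its array. These lowest signals were 148 in control and 159 in sorted cells, and the limit holds only with that floor. The median Absent signals, 239.7 in control and 236.6 in sorted cells, make a stricter floor that can give smaller folds. Log2 ratios with it are given where they moved. The difference between SMARCA2 and SMARCA4 was not tested. SMARCA5 (SNF2H), an ATPase of the ISWI remodellers, had 1729 in control cells and 926, Marginal, in sorted cells, a log2 ratio of -0.90. Its paralog SMARCA1 (SNF2L) was Absent on both arrays at all 4 probe sets.

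Among the core subunits that hold BAF together, SMARCC1 differed from probe set to probe set. SMARCC1 (BAF155), a scaffold subunit, had 3150 in control and 3021 in sorted cells at 201072_s_at, Present on both arrays. At 201074_at it had 1103 in control cells and 274, Absent, in sorted cells. At 201075_s_at it had 195, Absent, in control cells and 1105 in sorted cells. The latter 2 probe sets passed the 2-fold rule in opposite directions, as at least 4.02-fold lower and at least 5.66-fold higher. With the stricter floor 201075_s_at had a log2 ratio of 2.20, beside 2.50 as deposited. The probe set with the lowest detection p-values, 201072_s_at, showed a log2 ratio of -0.060. SMARCC2 (BAF170), its paralog, had 962 in control cells and 940, Absent, in sorted cells. SMARCD2 (BAF60B) had 1814, Absent, in control cells and 2054 in sorted cells. Neither differed by 2-fold. SMARCE1 (BAF57), an HMG box subunit, had 2389 in control cells and 1133, Absent, in sorted cells, and was lower by at least 2.11-fold. SMARCB1, SMARCD1, SMARCD3, SMARCAD1 and SMARCAL1 were not Present at any of their probe sets. Over the SMARC family 1 of 10 probe sets Present on at least 1 array was higher (10%, beside 12.9% of all). Another 4 were lower (40%, beside 14.1% of all). Of these 10 probe sets, 8 were Present on only 1 array. The family's median log2 ratio of -0.48 became 0.11 over the 2 probe sets Present on both arrays.

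CHD proteins are remodellers with paired chromodomains. CHD4, the ATPase of NuRD, had 2415 in control and 3687 in sorted cells. CHD1, which works on transcribed genes, had 966 and 1295. CHD6 had 818 and 1006 at 225031_at. These 3 genes were Present on both arrays and differed by less than 2-fold, with log2 ratios of 0.61, 0.42 and 0.30. A further CHD6 probe set, 234681_s_at, had 1373 in control cells and 761, Absent, in sorted cells.

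CHD2 and CHD9 did not give the same answer at all of their probe sets. CHD2 probe set 225077_at had 1952 in control and 914 in sorted cells, Present on both arrays, and was lower by 2.14-fold. It was the only member probe set Present on both arrays that reached 2-fold. CHD2 probe set 243751_at had 117, Absent, in control cells and 678 in sorted cells, higher by at least 4.58-fold against the lowest Present signal and at a log2 ratio of 1.501 with the stricter floor. CHD9 was Present in control cells only, at 3 of its 7 probe sets. Probe set 242157_at had 567 in control and 45.2, Absent, in sorted cells, lower by at least 3.56-fold against the lowest Present signal and at a log2 ratio of -1.26 with the stricter floor. Probe set 239654_at went the other way, with 488, Present, in control cells and 1037, Absent, in sorted cells, and so met neither part of the rule. The last, 212615_at, had 320 and 348. CHD3, CHD5, CHD7 and CHD8 were not Present. In total 1 of 9 CHD probe sets was higher (11.1%, beside 12.9% of all) and 2 were lower (22.2%, beside 14.1% of all).

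Of the 11 classical deacetylases only HDAC2 and HDAC8 were detected, both of class I, the nuclear deacetylases. HDAC2, a catalytic subunit of NuRD and SIN3 complexes, had 1106 in control cells and 1203, Marginal, in sorted cells. HDAC8 probe set 223345_at had 2493, Absent, in control cells and 2049 in sorted cells. Its probe set 223909_s_at had 1661 in control cells and 1481, Absent, in sorted cells. The log2 ratios of these 3 probe sets lay between -0.28 and 0.12, so that calls differed between the arrays while signals hardly did. HDAC1, HDAC3, the class II enzymes HDAC4, HDAC5, HDAC6, HDAC7, HDAC9 and HDAC10, and HDAC11 were never Present, although HDAC3 was Marginal in control cells at 1075. Over the deacetylases 7.69% of 26 probe sets were Present in control cells, beside 8.93% of all probe sets. In sorted cells 3.85% were Present, beside 8.24% of all. On at least 1 array 11.5% were Present, a share near the 12.5% of all.

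RBBP4 and RBBP7 are paired histone-binding proteins shared by NuRD, SIN3 and Polycomb complexes. RBBP7 had 11357 in control and 22711 in sorted cells, with a log2 ratio of 0.99985 that was just short of the 2-fold rule. After centring it was 0.89. RBBP4 had 16815 in control and 28475 in sorted cells at 217301_x_at, a log2 ratio of 0.76. Both had detection p-values under 0.01 on both arrays. RBBP4 probe set 239071_at differed in direction, with 1672 in control cells and 985, Absent, in sorted cells. With CHD4, they were the NuRD genes of the set that were Present on both arrays.

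CBX proteins read methyl marks on histone tails. CBX1, a heterochromatin protein of the HP1 group, had 544, Absent, in control cells and 400 in sorted cells. CBX2, a Polycomb subunit, had 1420, Absent, in control cells and 976 in sorted cells. Both were Present in sorted cells only and yet had the lower signal there, so a call alone gave no direction. Their log2 ratios were -0.44 and -0.54, and neither passed the 2-fold rule. CBX3, CBX5, CBX6 and CBX7 were not Present at any probe set.

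Such discordance between call and signal occurred at 7 of the 26 member probe sets Present on only 1 array (26.9%), in CBX1, CBX2, CHD9, HDAC2, HDAC8 and SET. Over all probe sets Present on only 1 array the share was 19.8%.

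**Figure D3:**
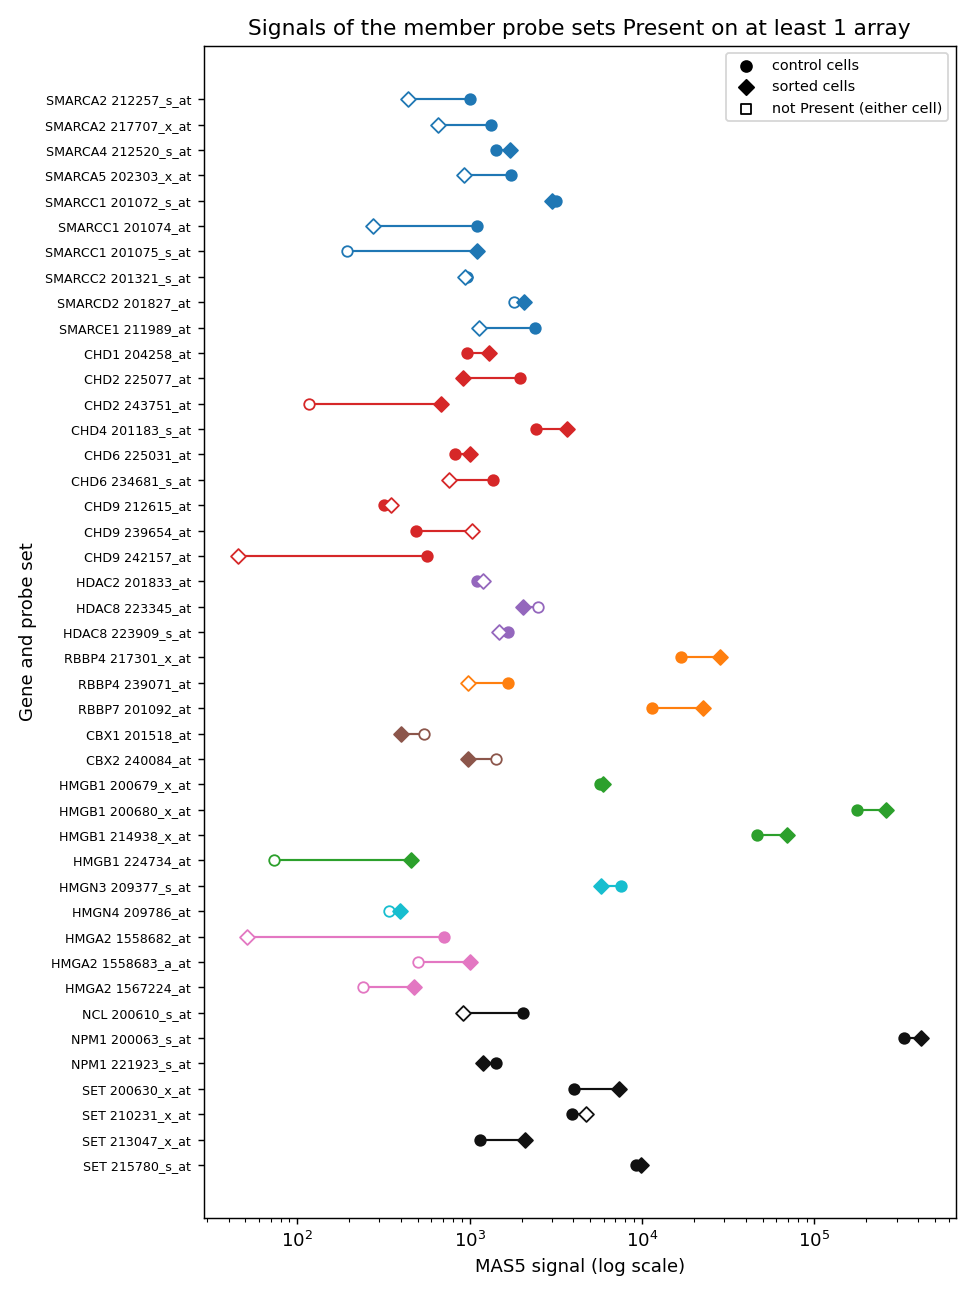
MAS5 signal (horizontal axis, log scale) of the 43 member probe sets Present on at least 1 array, in control cells (circles) and sorted cells (diamonds), coloured by family, filled where Present and open where Marginal or Absent. SMARCC1, CHD2 and HMGA2 each have 1 probe set past the 2-fold rule in either direction.

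HMGB1, an HMG box protein that bends DNA and acts as an alarm signal outside the cell, was detected on both arrays at 3 probe sets. At 200680_x_at it had 175491 in control and 258744 in sorted cells. At 214938_x_at it had 46141 and 69567. At 200679_x_at it had 5725 and 5939. These differed by log2 ratios of 0.56, 0.59 and 0.05, all under 2-fold, and the last turned to -0.06 with centring. Probe set 224734_at had 73.0, Absent, in control cells and 459 in sorted cells, higher by at least 3.10-fold. Its log2 ratio of 2.65 became 0.94, and its higher call was lost, with the stricter floor. HMGB2, HMGB3 and HMGB4 were never Present.

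HMGN proteins bind the histone core and open compact chromatin. HMGN3 had 7506 in control and 5810 in sorted cells, Present on both arrays with a log2 ratio of -0.37. HMGN4 had 343, Absent, in control cells and 393 in sorted cells. HMGN1, HMGN2 and HMGN5 were not Present, so no HMGN gene passed the 2-fold rule.

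HMGA2, an AT-hook protein mostly made in embryonic and tumour cells, was read by 9 probe sets, of which 3 were each Present on a single array. At 1558682_at it had 714 in control cells and 51.0, Absent, in sorted cells, lower by at least 4.48-fold against the lowest Present signal and at a log2 ratio of -1.59 with the stricter floor. At 1558683_a_at it had 500, Absent, in control cells and 1008 in sorted cells, higher by at least 2.01-fold. At 1567224_at it had 241, Absent, and 477, with a log2 ratio of 0.99. HMGA2 therefore had no single direction, and the higher call at 1558683_a_at was lost with centring, at a log2 ratio of 0.90. HMGA1 was Absent at both of its probe sets, with 690 in control and 2584 in sorted cells at 206074_s_at, and 957 and 1103 at 210457_x_at.

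NPM1 (nucleophosmin), a nucleolar chaperone, was Present on both arrays at 2 of 3 probe sets. At 200063_s_at it had 330098 in control and 416506 in sorted cells. At 221923_s_at it had 1414 and 1201. The log2 ratios were 0.34, which turned to -0.16 with quantile normalization, and -0.24. NPM1 was thus under 2-fold in either direction.

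SET, a histone chaperone and phosphatase inhibitor, was read by 7 probe sets, of which 5 are annotated to SETSIP as well. Probe set 215780_s_at, also annotated to SETP4, had 9198 in control and 9879 in sorted cells. Probe set 200630_x_at had 4039 and 7318. Probe set 213047_x_at had 1152 and 2093. All were Present on both arrays, at log2 ratios of 0.10, 0.86 and 0.86, the first of which turned to -0.01 with centring. Probe set 210231_x_at, which names SET alone, had 3940 in control cells and 4710, Marginal, in sorted cells. NCL (nucleolin), which binds ribosomal RNA, had 2032 in control cells and 920, Marginal, in sorted cells at 200610_s_at. It was lower by 2.21-fold. Its other probe set was Absent on both arrays.

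Differences were larger among probe sets Present on only 1 array or on none than among those Present on both. Of the 8 member probe sets with a detection p-value under 0.01 on both arrays, 0 differed by 2-fold or more, beside 9.6% of 823 such probe sets in all. Of the 17 Present on both arrays 1 did so (5.88%), beside 10.5% of all. Of the 126 never Present 69 did so (54.8%), beside 51.2% of all. The 12 members past the 2-fold rule had a detection p-value of 0.011 to 0.046 on the array that the rule asked to be Present, control for the lower and sorted for the higher ones. CHD2 225077_at, Present on both arrays, had 0.030 in control and 0.0020 in sorted cells. In 10 of them the other array was Absent, and in 1, that of NCL, it was Marginal. The members' median absolute log2 ratio was 0.46 among the 8, beside 0.41 for all probe sets of this kind. Among the other 9 Present on both arrays it was 0.42, beside 0.40 for all. It was 0.94 among the 26 Present on only 1 array and 1.13 among those never Present, beside 0.74 and 1.04 for all.

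**Figure D4:**
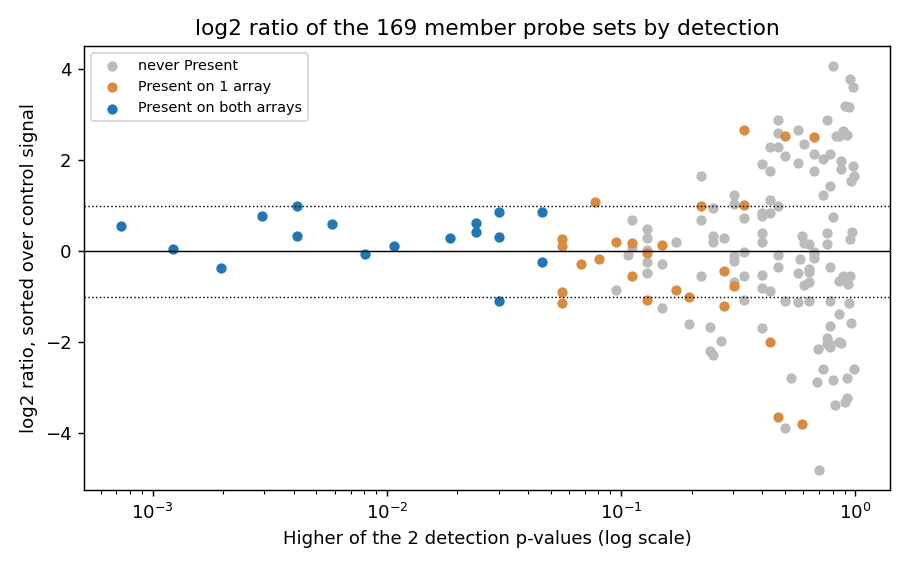
log2 ratio of sorted over control signal (vertical axis) of the 169 member probe sets against the higher of their detection p-values on the arrays (horizontal axis, log scale). The dotted lines mark 2-fold. Probe sets Present on both arrays (blue) lie between -1.09 and 0.99985, and those never Present (grey) between -4.81 and 4.06.

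Agreement between the probe sets of a gene served as a further view of error. Of the 25 genes detected, 11 had more than 1 probe set Present on at least 1 array. In 7 of these the log2 ratios of such probe sets spanned at least 1, and in 3 of them (SMARCC1, CHD2 and HMGA2) probe sets passed the 2-fold rule in both directions. SMARCA2 was the only one of the 11 in which each such probe set passed it the same way, over 2 of its 7 probe sets. Neither of them was Present on both arrays. The span was 0.57 for NPM1, 0.76 for SET, 2.60 for HMGB1 and 4.82 for HMGA2. These counts of genes were not made outside the set, so whether its probe sets agreed less than others is unknown. Of all probe sets Present on only 1 array 38.1% differed by 2-fold or more, and of such members 46.2% did.

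The kind of probe set differed too. Probe sets ending in _s_at, _x_at or _a_at can bind several transcripts or genes. Of the 17 members Present on both arrays 4 (23.5%) had none of these endings, beside 46.9% of all probe sets Present on both. They were the probe sets of CHD1, CHD2, CHD6 and RBBP7. HMGB1 and RBBP4 were Present on both arrays only at probe sets ending in _x_at. Of the 169 members in all 54.4% had none, beside 68.5% of all probe sets. RefSeq's rat gene table (GRCr8) held a gene of the same symbol for 54 of the 56 member genes, without HMGN4 and SMARCAD1-DT. Among its entries were 20 pseudogenes named for Npm1, 18 each for Hmgb1 and Hdac1, 15 for Set, 11 for Smarce1, 5 for Ncl and 4 for Rbbp4, and 8 for Hmgn4. The part of such copies in the signals was not tested. HDAC1 was Absent on both arrays at its single probe set.

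Partners of the members were taken from lists of 95 further chromatin genes, of which 91 had a probe set naming that gene only. Over these lists 45 genes were Present on at least 1 array, at 61 probe sets, of which 5 were higher (8.2%) and 6 lower (9.84%) by the 2-fold rule, beside 12.9% and 14.1% of all. Their median log2 ratio was 0.05, the same as over all probe sets.

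Among BAF and PBAF partners 7 of 16 genes were Present, and 3 of 12 probe sets were higher (25%, beside 12.9% of all) and 0 lower. ARID2, a DNA-binding subunit of PBAF, was Present on both arrays with 1333 in control and 3136 in sorted cells, higher by 2.35-fold. PBRM1, a bromodomain subunit of PBAF, had 267, Marginal, and 760. BRD7, also of PBAF, had 193, Absent, and 827 at 221776_s_at, higher by at least 4.30-fold, but 4077 and 4561 at 222737_s_at, Present on both. PHF10, another PBAF subunit, was Present on both arrays with 43540 and 65610 and did not pass the rule, at a log2 ratio of 0.59. ARID1A, the BAF counterpart of ARID2, had 27545 and 25791 at 218917_s_at. SS18, on the same list, had 567 and 909, Present on both arrays, at a log2 ratio of 0.68. ARID1B had log2 ratios of 0.12 at 225181_at, 0.07 at 225184_at, 0.61 at 233339_s_at and -0.94 at 1566990_x_at. A difference between PBAF and BAF subunits was not tested.

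Among NuRD, SIN3 and NCoR partners 9 of 13 measured genes were Present. Of 10 probe sets 1 was higher (10%, beside 12.9% of all) and 2 were lower (20%, beside 14.1% of all). MBD2, which binds methylated DNA, had 262, Absent, in control cells and 728 in sorted cells. GATAD2B, a bridging subunit of NuRD, had 5415 and 2686, with a log2 ratio of -1.01. MTA1, a NuRD scaffold, had 2792 and 1195, Absent, at 202247_s_at, but 2015, Absent, and 2257 at 211783_s_at. The NuRD subunits past the 2-fold rule thus did not share a direction.

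Among sirtuins 4 of 7 genes were Present, and 1 of 4 probe sets was lower (25%, beside 14.1% of all). It was that of SIRT2, with 4411 in control cells and 1730, Absent, in sorted cells. All 8 probe sets of acetyltransferases Present on at least 1 array, those of 6 genes including EP300 and CREBBP, differed by less than 2-fold. Thus 0% were higher and 0% lower, beside 12.9% and 14.1% of all, on few probe sets. Among Polycomb and heterochromatin methylation genes 9 of 16 measured genes were Present. Of 11 probe sets 1 was higher and 1 lower (9.09% each, beside 12.9% and 14.1% of all). EZH1, a histone methyltransferase, was higher with 583 and 1553, and PCGF2, a Polycomb RING finger protein, was lower with 2056 and 809. EED and TRIM28 were Present on both arrays and differed by less than 2-fold. Of the INO80 and SRCAP genes 5 of 9 were Present. Of their 7 probe sets 0 were higher and 0 lower, beside 12.9% and 14.1% of all. Of 16 further histone chaperones 4 were Present, and 2 of 8 probe sets were lower (25%, beside 14.1% of all). They were those of ANP32B at 201305_x_at (6064 and 2787) and NASP at 242918_at (441 and 138, Absent). Other probe sets of both genes, Present on both arrays, had log2 ratios of 0.15 and -0.19. Of the 4 DNA methylation genes DNMT3A was Present, in sorted cells only, with 1662 and 2384.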

How the data were processed

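Total RNA of 1 control and 1 sorted sample of rat myeloma cells was hybridised, after biotin labelling, to human Affymetrix arrays. The authors deposited MAS5 signal intensity values on a linear scale, scaled per array, with a detection p-value per probe set. Affymetrix Expression Console is the software in the submitters' processing notes (its version: not given in the sources used here). Detection calls were used as given, and Present calls reached a p-value of 0.0490. Signals were not normalized further.

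Samples were grouped by their titles. Members were found by gene symbol in the array's annotation, in which 41091 of 54613 probe sets had 1 symbol, 1801 several and 11721 none. Members, gene lists and alternatives were chosen with earlier results of these data known. Every member probe set Present on at least 1 array is given with its values, and of the partner and marker lists the probe sets past the 2-fold rule and some other Present ones, the latter chosen after their values were seen. Python 3.11.15, numpy 2.4.6, pandas 2.3.3 and matplotlib 3.10.9 were used. The counting was tested on simulated data, with changes above 2-fold planted at probe sets Present on both arrays. Probe sets Present on only 1 array were not covered by that test. The number of arrays limits the precision. Sample and array run cannot be told apart. Other settings were quantile normalization, centring, the series' value table (the same signals), a floor on dim signals, other detection rules, a 4-fold rule and other choices of probe sets. Probe sequences were not used here.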

Additional observations from a re-analysis of the deposited data

How the results depend on the processing

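No paired analysis was possible because each condition has 1 array, and no array could be left out. A value was taken as moved past 0.33, the hybridisation spikes' SD in log2 ratio (that of the polyA spikes was 0.42), and a count past 1.5 times. The counts of 4 higher and 8 lower member probe sets were 2 and 5 with gene-specific probe sets, 0 and 0 with a detection p-value under 0.01, 40 and 42 with no call required, and 0 and 4 with the brightest probe set of each gene. A 4-fold rule on the measured ratios left 3 higher and 3 lower, and on the lower limits 2 higher and 2 lower. The lower limits, a setting chosen after seeing the data, gave 4 and 8 at 2-fold. Quantile normalization gave 5 and 8, and centring 3 and 9. For the partner lists 5 higher and 6 lower became 2 and 2 with gene-specific probe sets, 1 and 0 with the 4-fold rule, 2 and 1 with a detection p-value under 0.01, 43 and 45 with no call, 2 and 3 with an Absent call required on the other array, and 2 and 2 with the brightest probe set. The SMARC median, -0.48 as deposited, went to -1.08 if limited to gene-specific probe sets, 0.11 for those Present on both arrays, -0.081 with no call, and -0.060 both with the brightest probe set and with the median of each gene. With no call required the medians were -0.22 for CHD, 0.335 for RBBP and 0.165 for HMGB. With gene-specific probe sets they were 0.12 for RBBP, 2.65 for HMGB (1 probe set) and -1.41 for HMGA. Apart from the smaller number of probe sets under the narrower rules, the cause was not tested. Of 43 single log2 ratios 4 moved with the floor, 1 with quantile normalization (NPM1), and 0 with centring or the value table. Of the 12 members past the 2-fold rule 10 were Absent on the other array, so their folds are lower limits that hold only with the floor chosen.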
